A study of Callithrix jacchus and Rattus norvegicus and Loxodonta africana with 31 samples.

Results

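Collagen genes were read in polyadenylated RNA from tissues of the common marmoset, a New World monkey, the rat and a wallaby, a marsupial. A gene was taken as a collagen gene where its symbol in the name column, ignoring case, was COL, a number, A and a number. This gave 23 of 19681 entries in the marmoset table, 43 of 20486 in the rat table and 40 of 13892 in the wallaby table, 106 of 54059 in all, and 21 symbols were found in all 3 tables. The marmoset groups were testis, ovary, brain, heart, kidney and liver, with a female and a male column for each of the last 4 tissues, 1 ovary column and 1 testis column. The marmoset testis column stands for 3 samples of 2 males, so it is the authors' value and has no SD or n. The rat groups were the same, with 1 male behind the testis column. The wallaby had 1 testis and 1 liver column, both from a male. No group carried a treatment or a mutation, and strain and age were not given in the labels. All other tissues of a species came, per the labels, from individual 1 of each sex, so sex and animal cannot be told apart. The p-values rest on how tissue differences vary between these 2 animals once their mean difference is removed.

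Collagens are secreted proteins whose chains wind around each other into a rope-like helix, and they are the main protein of the extracellular matrix. Fibrillar collagens such as I and III give tissue its tensile strength, and fibril-associated collagens such as XII and XIV sit on the surface of those fibrils. Collagen IV forms the sheet of basement membranes, collagen VI makes beaded microfibrils, and the multiplexins XV and XVIII carry sugar side chains and lie in or beside basement membranes. In heart, fibroblasts are the main source of fibrillar collagen, and in the kidney glomerulus podocytes make the collagen IV network of the filter.

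The unit of the tables is FPKM, sequenced fragments scaled by gene length and by library size, so that levels of different genes within a library can be set side by side. The sequencing depth is unknown. The labelled tissues carried their own marker genes: all 5 kidney tubule markers were higher in kidney in both species, and the heart muscle list summed to 5600 and 7880 FPKM in marmoset heart and to 47797 and 80168 FPKM in rat heart, against at most 14.4 and 41.7 FPKM in the other somatic libraries. In all 4 livers ALB, which encodes albumin, had a value of 0 although the hepatocyte list as a whole summed to at least 10119 FPKM. SERPINA1, a hepatocyte marker, stood at 13492 FPKM in female and 0 in male marmoset liver. MYH7, a heart muscle marker, stood at 1044 FPKM in female and 0 in male marmoset heart. An exact 0 is therefore given here only as listed at 0. The columns named for brain do not say whether they hold frontal cortex, cerebellum or both. In the rat, 8 cerebellar markers summed to 130 FPKM in the female and 771 FPKM in the male brain column, so these 2 columns do not hold the same tissue mixture.

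In each single rat column most collagen genes were under 1 FPKM, and in the marmoset this varied by tissue. Between 34.8% and 65.2% of the 23 marmoset members reached 1 FPKM in a given column, against 58.0% to 65.7% of all entries, and between 30.2% and 48.8% of the 43 rat members did so, against 52.5% to 60.2% of all entries. In marmoset female heart and ovary the shares of members (60.9% and 65.2%) were above those of all entries (58.0% and 62.2%). A few genes carried most of the signal. COL18A1 was the highest member in the livers of both sexes and both species, and COL1A2 was the highest member in marmoset ovary with 234 FPKM. The summed collagen FPKM was largest in ovary, at 505 FPKM in the marmoset and 624 FPKM in the rat. It was smallest in brain, at 37.1 and 34.7 FPKM in the marmoset and 66.1 and 62.3 FPKM in the rat (female and male). The FPKM of all entries also differed. It ran from 210712 (female brain) to 1686920 (male liver) in the marmoset and from 457975 (ovary) to 3551200 (male heart) in the rat. The order of the collagen sums need not be that of their shares of a library. Members under 1 FPKM in every column numbered 5 in the marmoset (COL6A5, COL6A6, COL8A2, COL17A1 and COL25A1), 8 in the rat (Col2a1, Col4a6, Col6a4, Col7a1, Col9a1, Col10a1, Col19a1 and Col25a1) and 21 in the wallaby.

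**Figure D1:**
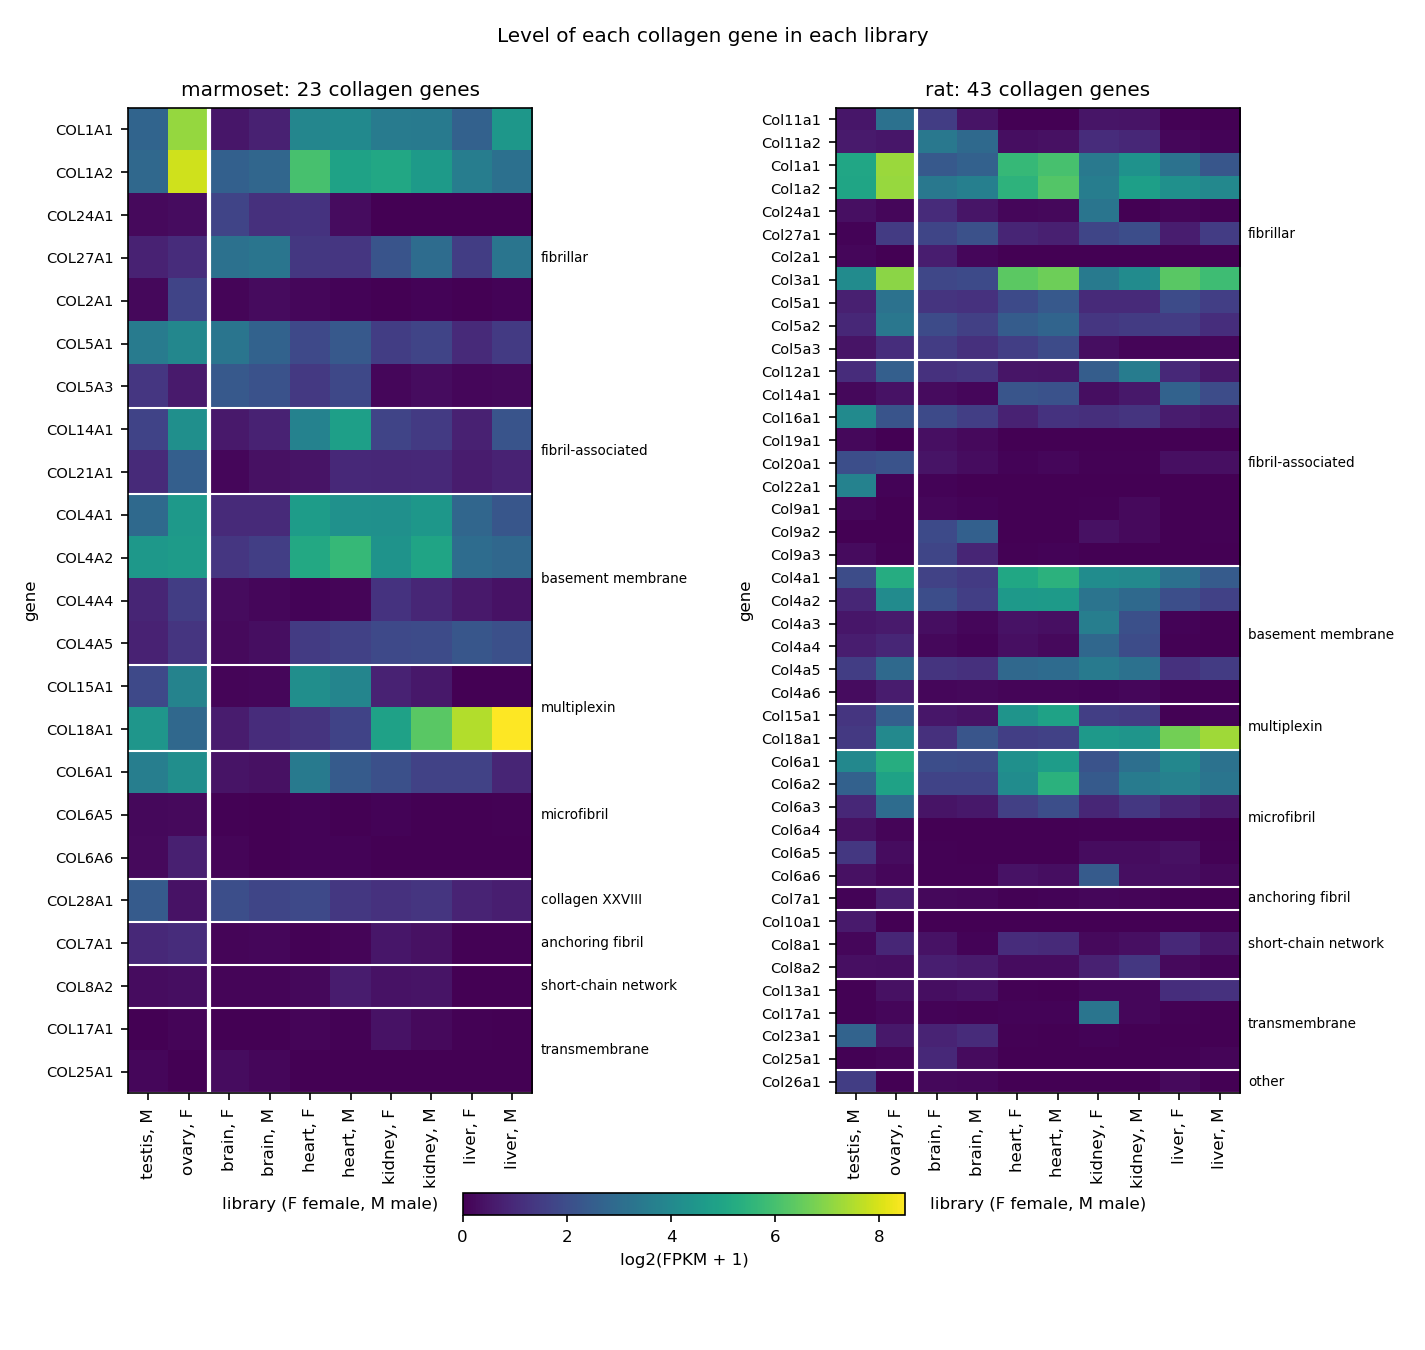
Level of each collagen gene (rows, grouped by structural class) in each column (testis and ovary left of the white line, then the somatic tissues, F female and M male), as log2(FPKM + 1) in colour. COL18A1 is the brightest row in liver in both species, and COL1A1 and COL1A2 are brightest in ovary; the marmoset testis column is the authors' value for 3 samples.

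The make-up of the collagen signal differed between tissues. Fibrillar chains held 78.0% and 74.9% of the summed collagen FPKM in marmoset brain and 77.8% in its ovary, but 8.64% and 9.52% in its liver. Multiplexin chains held 81.7% and 85.9% in marmoset liver, 38.5% and 57.8% in rat liver and 55.5% in wallaby liver. Basement membrane chains held 32.5% and 29.8% in marmoset kidney, close to the 31.8% and 41.1% in its heart, and 34.2% and 21.9% in rat kidney against 19.9% and 17.2% in rat heart. These are shares of a sum over the named members, and the marmoset name column leaves out COL3A1 among others. With the marmoset genes named only by ID, fibrillar chains held 64.3% and 57% in brain, 68.6% in ovary and 16.5% and 13.1% in liver, and multiplexins 71.1% and 77.2% in liver.

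**Figure D2:**
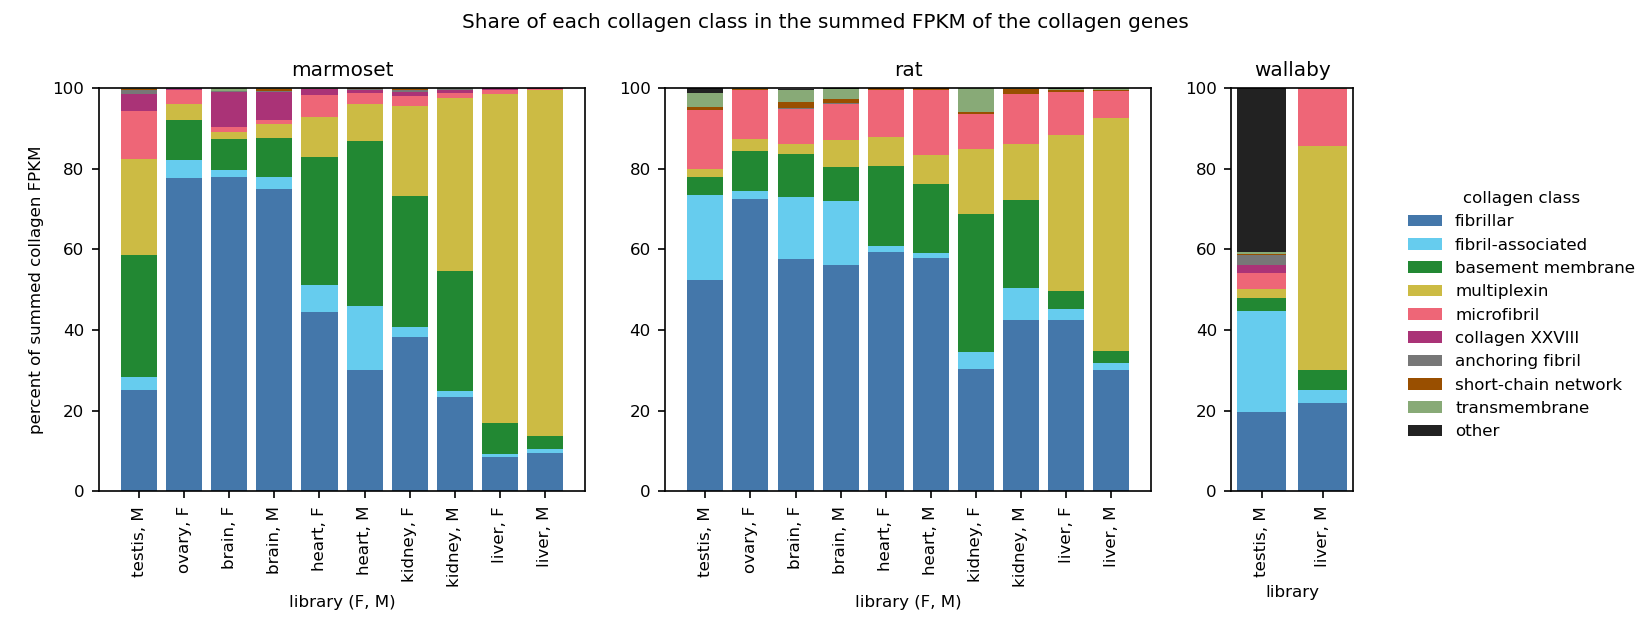
Percent of the summed FPKM of the collagen genes named in the tables' symbol column that falls to each structural class, for each column of the 3 tables (F female, M male). Multiplexins fill 38.5% to 85.9% of the liver bars, and fibrillar chains fill 72.4% and 77.8% of the ovary bars.

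To ask which collagen genes mark a somatic tissue, brain, heart, kidney and liver were each compared with the mean of the other 3 tissues by limma on log2(FPKM + 1), over every gene that reached 1 FPKM in 2 or more of the 8 libraries. A gene was called where its difference was 1 log2 unit or more and its p, adjusted over all genes tested by the Benjamini-Hochberg method, was under 0.05. Of the members, 14 of 23 in the marmoset and 25 of 43 in the rat passed the filter, and 1 marmoset and 5 rat members passed it through 1 tissue alone: COL15A1 in marmoset heart, Col9a2 in rat brain, Col4a3 and Col4a4 in rat kidney, Col8a1 in rat heart and Col13a1 in rat liver. Each of these entered the test only because it was high in that tissue, so its differences are given as a description, without p, and the counts that hold it are read the same way. The 4 comparisons of a table share their libraries, so a gene high in liver is by construction pushed down in the others.

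Heart was the somatic tissue with the most collagen genes called higher. In marmoset heart 7 members were higher and 2 lower (50.0% and 14.3% of those tested), against 13.1% and 18.2% of all genes tested, and the median difference was 1.08 for the members and −0.17 for all genes. In rat heart 12 were higher and 3 lower, against 16.7% and 17.3% of all genes, with medians of 0.95 and −0.11. In brain more members were called lower than higher. In marmoset brain 4 members were higher and 9 lower (28.6% and 64.3% of those tested), against 17% and 28.8% of all genes. Both marmoset shares were thus above those of all genes. In rat brain 2 were higher and 11 lower (8% and 44%), against 17.6% and 27.1%. Rescaling the libraries to a common median gene gave 5 higher and 10 lower in rat brain. The member medians in brain were −1.62 and −0.76, and the medians of all genes were −0.34 and −0.28 (marmoset and rat).

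In marmoset kidney 4 members were higher and 1 lower, against 13.7% and 9.89% of all genes, and in rat kidney 5 were higher and 2 lower (5 and 1 after rescaling), against 11.9% and 11.1%. In marmoset liver 1 was higher and 3 lower, against 21.3% and 16.5%, and in rat liver 3 were higher and 6 lower, against 19.6% and 19.1%. With a pseudocount of 0.1 in place of 1, 9 members were called in marmoset liver, 15 in rat liver and 20 in rat brain. The shares of all genes given here are for the pseudocount of 1. The 6 lower in rat liver were Col15a1, Col11a2 (−1.39 ± 0.16), Col1a1 (−1.34 ± 0.34), Col4a2 (−1.32 ± 0.18), Col4a5 (−1.13 ± 0.18) and Col4a3 (−1.09 ± 0.31). Without the male liver the Col1a1 difference was −0.63. Without the female liver Col4a3 was at −0.83 and Col4a5 at −0.95. Left-out libraries moved some of these counts by more than 1.5 times: marmoset kidney went to 3 calls without the female and 2 without the male kidney, rat heart to 9 without the male heart, and rat kidney to 2 without the female kidney. Without the brain columns, 1 member was called in marmoset kidney, COL15A1 as lower, which was not among the 5 above, and 7 were called in marmoset liver.

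Of the members tested in both species, 13 in each tissue, none was called in opposite directions. In heart, 7 were higher in both: COL1A1, COL1A2, COL4A1, COL4A2, COL6A1, COL14A1 and COL15A1. These were all 7 called higher in the marmoset and 7 of 8 called in the rat. COL15A1 passed the marmoset filter through heart alone, so the heart, brain and liver counts that hold it here are a description. In brain, 9 of the 13 were called lower in the marmoset, and the same 9 in the rat. In kidney COL18A1 was the 1 member higher in both species, of 4 called higher in the marmoset and 2 in the rat. Each species had 1 member lower in kidney, and none was shared. In liver COL18A1 was again higher in both, of 1 called in the marmoset and 2 in the rat. COL15A1 was lower in both livers, of 3 called lower in the marmoset and 4 in the rat. Of 8998 genes tested in both species by a symbol found once in each table, 61.3% of those called higher in marmoset heart were called higher in rat heart, and 66.8% of those called lower in marmoset brain were called lower in rat brain. The same shares were 51.8% and 55.1% for marmoset kidney calls (higher and lower) and 54.5% and 62.4% for marmoset liver calls. Between 11 and 100 of these genes per tissue and direction were called in opposite directions.

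**Figure D3:**
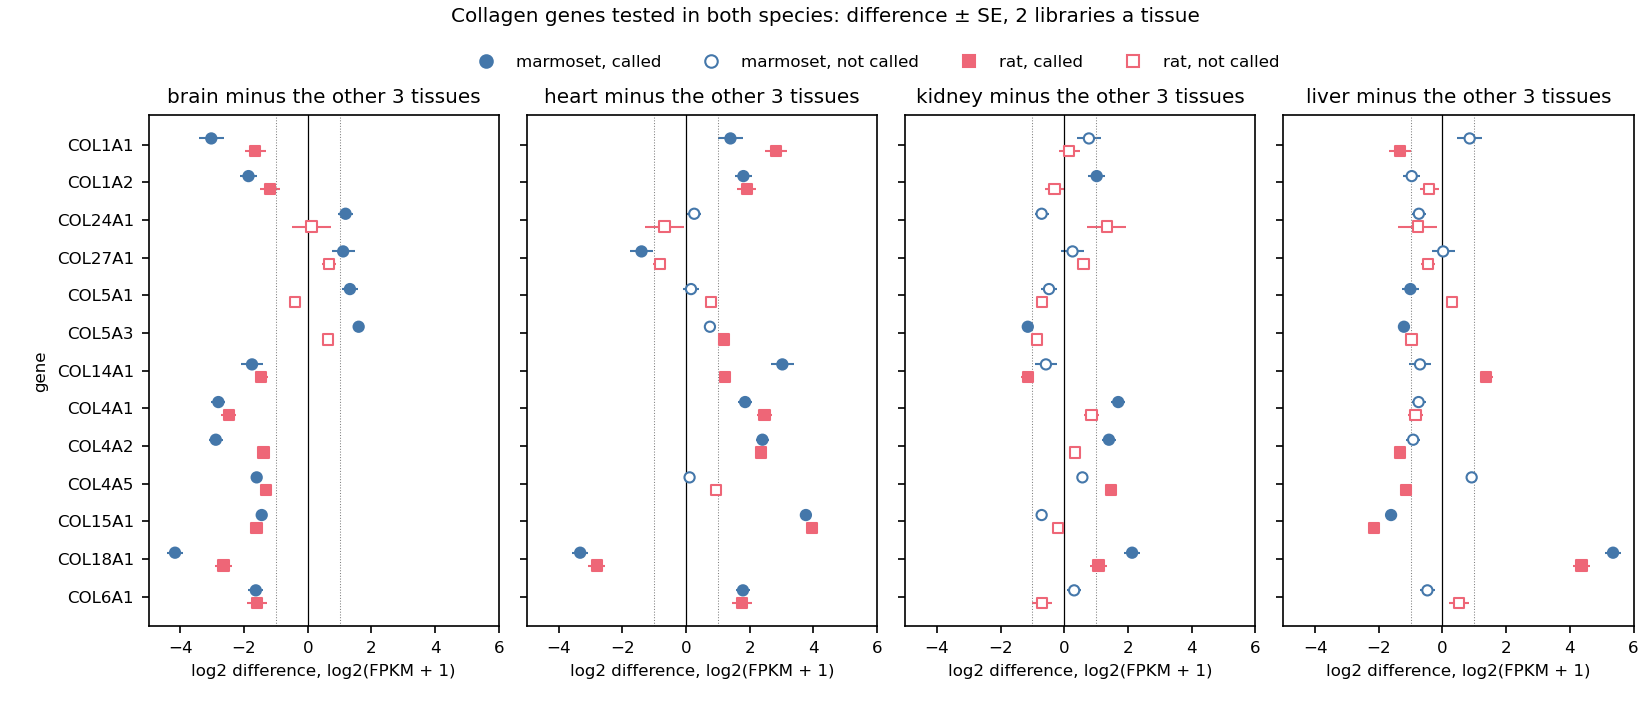
Difference of each somatic tissue from the mean of the other 3, in log2 units of log2(FPKM + 1) ± SE, for the 13 collagen genes tested in both species (circles marmoset, squares rat, filled where called, 2 libraries a tissue). COL15A1 lies at 3.77 and 3.95 in heart and COL18A1 at 5.36 and 4.37 in liver. COL15A1 passed the marmoset filter through heart alone, so its marmoset values are a description.

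Collagen I, the bulk collagen of skin, bone and scar, is made of the chains COL1A1 and COL1A2. In the rat, Col1a1 stood at 51.2 and 64.2 FPKM in female and male heart, against 4.22 and 5.29 in brain, 9.72 and 19.0 in kidney and 8.23 and 3.88 in liver. Both hearts were above every other somatic library. The heart difference was 2.82 ± 0.34 log2 units (SE, adjusted p = 0.000736, limma), and Col1a2, at 44.2 and 73.4 FPKM in heart and between 9.68 and 26.7 FPKM in the other somatic libraries, gave 1.91 ± 0.30. Marmoset COL1A1 was less clear-cut, at 14.1 and 15.3 FPKM in heart, 0.435 and 0.718 in brain, 10.7 and 10.0 in kidney and 5.24 and 21.4 in liver. Here the male liver was the highest somatic library, and the heart call (1.4 ± 0.39, adjusted p = 0.0235) was lost without the animal as a term (adjusted p = 0.0674) and without the brain columns, where the difference was 0.44. Marmoset COL1A2 stood at 63.5 and 28.6 FPKM in heart, 5.03 and 6.01 in brain, 33.0 and 23.8 in kidney and 11.1 and 7.87 in liver, and was called higher in heart (1.80 ± 0.27) and in kidney (1.02 ± 0.27, adjusted p = 0.0267). The kidney call ended without the animal term (adjusted p = 0.1). The marmoset COL1A1 entry is listed on chromosome X in the table, whereas rat Col1a1 is listed on chromosome 10, and its identity rests on the symbol alone.

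The ratio of the chains was not constant. COL1A1 stood at 0.0864 and 0.12 times the level of COL1A2 in marmoset brain, 0.222 and 0.534 in heart, 0.324 and 0.421 in kidney, 0.474 in female liver and 2.72 in male liver. In the rat the ratio ran from 0.267 in male liver to 1.16 in female heart. The marmoset male liver thus stood apart from the other 7 somatic libraries.

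Collagen III, which accompanies collagen I in elastic tissues and in the reticular fibres of liver, was measured as a member in the rat and the wallaby. Rat Col3a1 stood at 80.5 and 98.5 FPKM in heart and 79.5 and 56.7 FPKM in liver, against 10.4 and 16.1 in kidney and 2.52 and 2.78 in brain. It was called higher in heart (2.57 ± 0.24, adjusted p = 0.000288) and in liver (2.04 ± 0.24, adjusted p = 0.000616), and lower in brain (−3.60 ± 0.24) and kidney (−1.01 ± 0.24). Without the brain columns the liver difference was 0.94 and was no longer called. In rat liver Col3a1 was 9.66 and 14.6 times as high as Col1a1, against ratios of 0.503 to 1.57 in every other rat column. Wallaby liver had 29.5 FPKM of COL3A1 and 12.5 FPKM of COL1A1, a ratio of 2.37.

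The minor fibrillar chains behaved differently. COL5A1 and COL5A3, chains of collagen V, which helps to start collagen I fibrils, were called higher in marmoset brain. COL5A3 stood there at 4.23 and 3.46 FPKM, against 1.68 and 2.61 in heart, 0.109 and 0.215 in kidney and 0.104 and 0.139 in liver (1.60 ± 0.17, adjusted p = 0.000333), and COL5A1 at 8.79 and 5.44 FPKM, against 1.03 to 4.14 in the other somatic libraries (1.33 ± 0.26, adjusted p = 0.00416). COL24A1 (1.19 ± 0.22) and COL27A1 (1.11 ± 0.36) were also called higher in marmoset brain. COL24A1 was at 2.33 and 1.24 FPKM there and at 1.37 FPKM in female heart. COL27A1 was at 8.03 and 8.95 FPKM in brain and at 8.97 FPKM in male liver, so its groups overlapped, and its call was lost without the animal term (adjusted p = 0.109), as was that for its lower level in marmoset heart (1.60 and 1.55 FPKM, −1.4 ± 0.36, adjusted p = 0.0753 without the term). Without the female marmoset brain the brain differences were 0.84 for COL5A1, 1.06 for COL24A1 and 0.76 for COL27A1. None of the 4 was called in rat brain. Col5a3 was at 1.83 and 1.25 FPKM there (0.63 ± 0.17) and Col5a1 at 1.42 and 1.31 FPKM (−0.39 ± 0.19). In rat heart Col5a2 (1.11 ± 0.20) and Col5a3 (1.20 ± 0.17) were higher, and without the male heart their differences were 0.89 and 0.94. Marmoset COL5A3 was lower in kidney (−1.14 ± 0.17) and liver (−1.21 ± 0.17), calls that ended without the brain columns (−0.69 and −0.76).

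Col11a2 and Col9a2, chains of cartilage collagens, were the 2 members called higher in rat brain. Col11a2, a chain of collagen XI, stood at 9.61 and 6.52 FPKM in brain, against 0.0591 to 1.12 FPKM in heart, kidney and liver (2.66 ± 0.16, adjusted p = 2.64e-05). Col9a2, a chain of the fibril-associated collagen IX, stood at 2.72 and 5.02 FPKM in brain and at most 0.299 FPKM in the other somatic libraries (2.14 ± 0.19), and it passed the filter through brain alone. Both were above all 6 other somatic libraries in both sexes. Col9a3 and Col11a1 passed 1 FPKM in the female brain alone (2.40 and 1.89 FPKM, against 0.844 and 0.363 FPKM in the male brain) and were not tested. Col2a1, the main cartilage collagen, was at 0.592 and 0.112 FPKM in rat brain. In marmoset brain the ID-named COL9A2 and COL9A3 stood at 2.06 and 2.91 FPKM and at 1.72 and 3.91 FPKM, and COL9A2 was higher still in kidney, at 2.95 and 5.77 FPKM. Also by ID only, COL11A2 was at 0.945 and 0.732 FPKM there, COL11A1 at 0.617 and 0.540 and COL9A1 at 0.180 and 0.258. The member COL2A1 was at 0.0842 and 0.188 FPKM in marmoset brain.

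Fibril-associated collagen XIV, a decorin-binding collagen of dense connective tissue, was high in heart. Marmoset COL14A1 stood at 12.7 and 26.9 FPKM in heart and at most 3.65 FPKM in the other somatic libraries (3.03 ± 0.35, adjusted p = 0.000836). Rat Col14a1 stood at 3.78 and 3.46 FPKM in heart but at 5.33 and 2.93 FPKM in liver, and was called higher in both (1.23 ± 0.20 and 1.37 ± 0.20) and lower in kidney (−1.14 ± 0.20) and brain (−1.46 ± 0.20). Without the brain columns the heart difference was 0.83, and neither tissue was called higher. Rat Col12a1, a fibril-associated collagen of tendon and fascia, stood at 4.63 and 10.8 FPKM in kidney, against 0.376 to 1.5 FPKM in the other somatic libraries (2.20 ± 0.28, adjusted p = 0.00136). Among the somatic tissues it was lowest in heart, at 0.400 and 0.376 FPKM (−1.21 ± 0.28).

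Collagen IV chains assemble in fixed sets: COL4A1 with COL4A2 in nearly all basement membranes, and COL4A3, COL4A4 and COL4A5 together in the glomerular filter. Mutations of the last set cause Alport syndrome, an inherited kidney disease of humans. Marmoset COL4A1 stood at 25.1 and 18.7 FPKM in heart and 18.1 and 21.8 in kidney, against 5.99 and 3.88 in liver and 1.00 and 1.01 in brain. COL4A2 followed it, at 34.0 and 51.0 FPKM in heart, 19.8 and 29.9 in kidney, 7.10 and 6.09 in liver and 1.52 and 1.95 in brain. Heart and kidney were high and brain was lowest for both chains. The heart differences were 1.86 ± 0.22 and 2.40 ± 0.22, the kidney differences 1.70 ± 0.22 and 1.4 ± 0.22, and the brain differences −2.81 ± 0.22 and −2.89 ± 0.22. The kidney calls of both chains were lost without the brain columns, where they were 0.86 and 0.50.

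In the rat, heart alone led for this pair. Col4a1 stood at 32.2 and 43.6 FPKM in heart, 16.4 and 14.9 in kidney, 7.72 and 4.41 in liver and 2.19 and 1.71 in brain, and Col4a2 at 23.2 and 23.5 FPKM in heart and between 1.98 and 8.70 FPKM in the other somatic libraries. The heart differences were 2.47 ± 0.24 and 2.37 ± 0.18, and the kidney differences of 0.86 and 0.34 were not called. The order of the chains differed between the tables: COL4A1 lay below COL4A2 in all 10 marmoset columns, and above it in 8 of 10 rat columns, brain being the exception. As the tables were made separately, how much of this comes from the gene models was not tested.

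The second set was a kidney set in the rat. Col4a3 stood at 11.5 and 3.23 FPKM in kidney and at most 0.327 FPKM in the other somatic libraries, and Col4a4 at 6.22 and 2.90 FPKM against at most 0.282. The kidney differences were 2.64 ± 0.31 and 2.25 ± 0.20, and both genes passed the filter through kidney alone. Col4a5 was broader, at 9.99 and 8.00 FPKM in kidney, 6.36 and 6.78 in heart, 1.33 and 1.80 in liver and 1.42 and 1.26 in brain (1.48 ± 0.18 for kidney). In bulk RNA, fewer cells of a type and less RNA per cell cannot be told apart.

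In the marmoset the set was not confined to kidney. COL4A4 reached 1.36 and 0.892 FPKM in kidney, 0.493 and 0.327 in liver and at most 0.182 in heart and brain, and was not tested, having passed 1 FPKM in 1 library. COL4A5 was highest in liver, at 3.80 and 3.20 FPKM, followed by kidney at 2.69 and 2.81, heart at 1.77 and 2.15 and brain at 0.171 and 0.254. Its liver difference of 0.92 ± 0.16 lay under the 1 log2 unit required. The ID-named COL4A3 stood at 5.29 and 6.24 FPKM in kidney, 1.45 and 2.39 in liver and at most 0.252 in heart and brain.

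**Figure D4:**
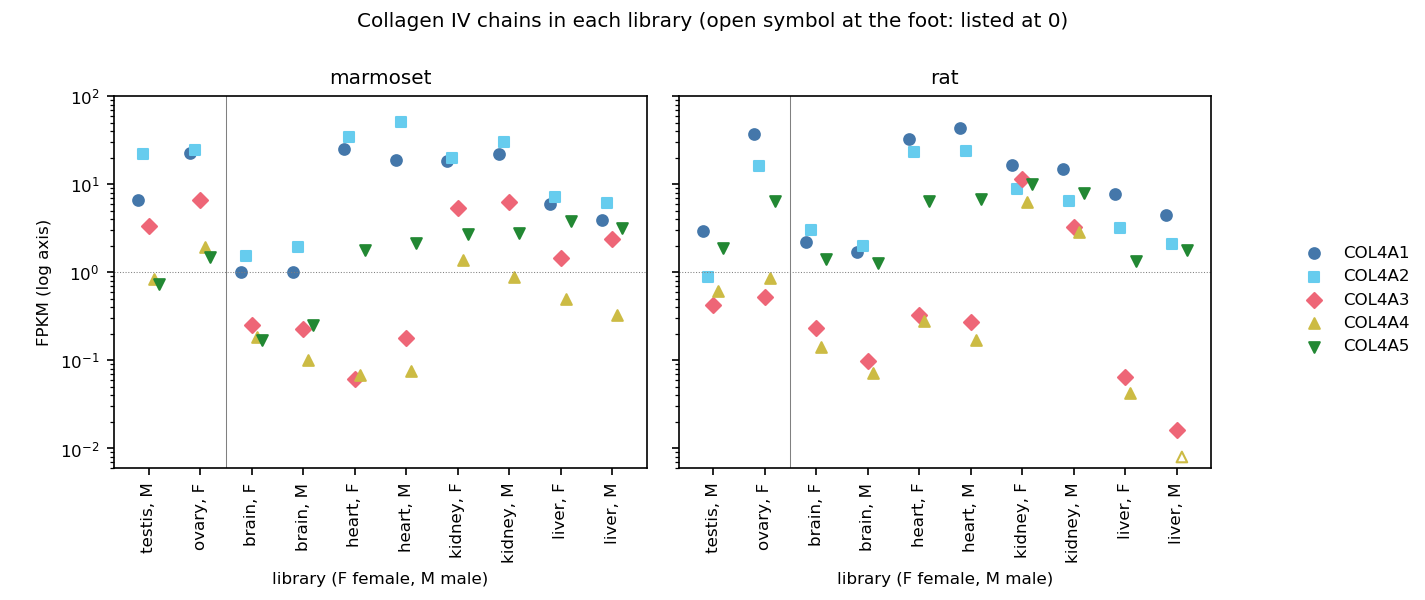
FPKM of 5 collagen IV chains in each column on a log axis (F female, M male; open symbols at the foot are listed at 0; marmoset COL4A3 is named by its ID only). In rat kidney COL4A3 and COL4A4 lie between 2.90 and 11.5 FPKM, and in the other rat columns they lie under 1 FPKM.

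The multiplexins XV and XVIII split by tissue. COL18A1, whose C-terminal piece is released as the angiogenesis inhibitor endostatin, stood at 183 and 362 FPKM in marmoset liver, against 28.1 and 79.4 in kidney, 1.44 and 2.30 in heart and 0.567 and 1.13 in brain. Rat Col18a1 stood at 101 and 154 FPKM in liver, 22.8 and 20.8 in kidney, 1.96 and 2.11 in heart and 1.27 and 3.76 in brain. The order of tissues was liver, then kidney, then heart and brain in both species, and the liver differences were 5.36 ± 0.25 (adjusted p = 1.80e-05) and 4.37 ± 0.27 (adjusted p = 3.94e-05). Heart (−3.32 ± 0.25 and −2.80 ± 0.27) and brain (−4.17 ± 0.25 and −2.65 ± 0.27) were called lower, and kidney higher (2.13 ± 0.25 and 1.08 ± 0.27, marmoset and rat). The kidney calls ended without the brain columns, where the differences were 0.84 and 0.22. Wallaby liver had 155 FPKM of COL18A1, against 0.449 FPKM in wallaby testis.

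COL15A1, found in basement membranes of muscle and small vessels, was high in heart and low in liver, the reverse of COL18A1. Both genes were called lower in brain in both species, for marmoset COL15A1 as a description. COL15A1 stood at 17.4 and 13.7 FPKM in marmoset heart, 0.775 and 0.460 in kidney and 0.0850 and 0.112 in brain. In marmoset liver it was listed at 0 in the female and at 0.0113 FPKM in the male. In the rat it stood at 19.9 and 28.5 FPKM in heart, 1.97 and 1.81 in kidney, 0.430 and 0.331 in brain and 0.0241 and 0.0547 in liver. Heart was above every other somatic library in both species, by 3.77 ± 0.16 in the marmoset, where it passed the filter through heart alone, and 3.95 ± 0.18 in the rat (adjusted p = 1.79e-05), and liver was below them (−1.61 ± 0.16 and −2.15 ± 0.18). It was the largest heart difference of any member in both species. Endothelial markers were also highest in heart. The list summed to 132 and 187 FPKM in marmoset heart and 13.5 to 73.3 FPKM in the other somatic libraries. In the rat it summed to 226 and 240 FPKM in heart and 18.8 to 102 FPKM in the other somatic libraries. In liver the list did not follow COL15A1, which was lower there than in brain in both species. The list summed to 53.4 and 50.8 FPKM in marmoset liver, above the 13.5 and 16.6 FPKM of brain. The rat sums were 40.8 and 39.9 FPKM in liver and 19.9 and 18.8 FPKM in brain. All 6 marmoset and all 7 rat genes of that list were called higher in heart, where 13.1% and 16.7% of all genes were. Their part in the result was not tested.

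Collagen VI, a microfibril of the zone around muscle and other cells, is built of COL6A1, COL6A2 and a longer chain, most often COL6A3. Rat Col6a1 stood at 18.1 and 25.2 FPKM in heart, 14.3 and 8.12 in liver, 3.56 and 7.59 in kidney and 3.06 and 2.81 in brain. Col6a2 stood at 16.5 and 42.1 FPKM in heart, 12.4 and 8.97 in liver, 4.29 and 10.5 in kidney and 2.26 and 2.31 in brain, and Col6a3 at 2.06 and 3.10 FPKM in heart and 0.359 to 1.60 in the other somatic libraries. All 3 chains were higher in heart (1.76 ± 0.32, 2.04 ± 0.36 and 1.04 ± 0.19), and all 3 calls were lost without the male heart. Marmoset COL6A1 stood at 10.5 and 4.44 FPKM in heart, 3.18 and 2.21 in kidney, 2.19 and 0.856 in liver and 0.375 and 0.295 in brain (1.79 ± 0.23 for heart). Brain was lowest for COL6A1 in both species, at −1.63 ± 0.23 and −1.59 ± 0.32. The rarer long chains Col6a4, Col6a5 and Col6a6 were at most 0.330 FPKM in the rat somatic libraries, except Col6a6 in female kidney.

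Fibroblast and mural cell markers were higher in heart along with these chains. The list summed to 1235 and 1163 FPKM in marmoset heart and 43.7 to 405 FPKM in the other somatic libraries, and to 806 and 1397 FPKM in rat heart and 119 to 276 FPKM in the other somatic libraries. Of its genes, 4 of 5 in the marmoset and 7 of 9 in the rat were called higher in heart. The shares of all genes were 13.1% and 16.7%. Of the 9 rat genes 1 was lower, and none of the list's genes in the table was listed at 0 in a heart library. Single genes carried a large part of these sums. DCN alone stood at 1022 and 835 FPKM in marmoset heart and at 344 and 823 FPKM in rat heart. Thy1 stood at 228 and 155 FPKM in rat brain. DCN and LUM belong both to this list and to the fibril proteoglycans below. How far the number of such cells sets the collagen levels was not tested.

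The genes that build, decorate and remove collagen were followed in 6 lists. Of all genes tested, 13.1% and 16.7% were higher in heart and 28.8% and 27.1% were lower in brain (marmoset and rat). In kidney 13.7% and 11.9% were higher, and in liver 16.5% and 19.1% were lower. The list counts stand beside these shares. Fibril proteoglycans, small proteins on the fibril surface, were called higher in heart in 5 of 6 marmoset genes and 7 of 9 rat entries, which stand for 7 genes because Ogn and Aspn have 2 entries each, and none was lower. DCN stood at 1022 and 835 FPKM in marmoset heart and 28.5 to 201 FPKM in the other somatic libraries (3.20 ± 0.22), and Lum at 153 and 305 FPKM in rat heart and at most 6.37 FPKM in the other somatic libraries (5.44 ± 0.30). In brain BGN, which encodes biglycan, was the most reduced of the list in both species (−3.79 ± 0.34 and −3.08 ± 0.27). In liver it was higher in both species (2.26 ± 0.34 and 1.84 ± 0.27), whereas OGN in the marmoset (−2.19 ± 0.38) and Dcn in the rat (−2.75 ± 0.42) were lower.

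Basement membrane partners, the laminins, nidogens, perlecan and agrin, were higher in heart in 6 of 12 marmoset entries, with AGRN lower (−1.28 ± 0.22, lost without the animal term), and in 8 of 10 tested in the rat. The shares of all genes higher in heart were 13.1% and 16.7%. LAMA2, the laminin chain of muscle, led the marmoset (26.5 ± 5.81 FPKM in heart, SD, n = 2, 3.81 ± 0.21 log2 units), and Lamb2 led the rat (138 ± 8.70 FPKM, 3.90 ± 0.19). In rat liver all 10 tested partners were lower, Lamb2 the most (−2.83 ± 0.19), and in marmoset liver 4 were lower, NID2 the most (−2.06 ± 0.27). In kidney 4 were higher and none lower in each species, led by LAMB1 in the marmoset (2.62 ± 0.17) and Lama5 in the rat (2.46 ± 0.25). In brain 9 marmoset and 8 rat partners were lower, LAMC1 (−3.25 ± 0.40, 1 of its 2 entries) and Hspg2 (−2.47 ± 0.27) the most, and none was higher.

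Enzymes and chaperones that fold procollagen were mostly lower in brain, 11 of 16 in the marmoset and 10 of 18 entries tested in the rat. Of all genes, 28.8% and 27.1% were lower in brain. SERPINH1, the collagen chaperone of the endoplasmic reticulum, was higher in heart in both species (2.40 ± 0.33 and 2.08 ± 0.20), and stood at 93.7 and 86.1 FPKM in marmoset heart against 4.19 to 76.0 FPKM in the other somatic libraries. LEPREL1, a prolyl 3-hydroxylase that acts on collagen IV, was higher in kidney in both, at 50.5 and 71.0 FPKM in marmoset kidney against at most 4.62 in the other somatic libraries (4.41 ± 0.25), and at 25.2 and 33.2 FPKM in rat kidney against at most 1.13 in the other somatic libraries (4.18 ± 0.17). P4HB, protein disulfide isomerase and a subunit of prolyl 4-hydroxylase, was higher in liver (3.57 ± 0.24 and 3.37 ± 0.21). Of the other called genes, P4HA3 was higher in marmoset brain (1.18 ± 0.12) and Leprel2 in rat brain (2.13 ± 0.38). SERPINH1 was lower in marmoset brain (−2.96 ± 0.33) and liver (−1.26 ± 0.33), and without the male liver its liver difference was −0.59. PPIB in marmoset heart (−2.05 ± 0.24), P4hb in rat brain (−3.42 ± 0.21) and Plod2 in rat liver (−1.36 ± 0.19) were also lower.

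Genes of propeptide removal and crosslinking were higher in heart in 3 of 12 tested in the marmoset and 5 of 10 in the rat, where 13.1% and 16.7% of all genes were, and 2 and 1 were lower. The higher ones were led by TLL2 (3.56 ± 0.19) and Pxdn (2.51 ± 0.19). Liver had a lead gene of its own in each species, ADAMTS14 in the marmoset (3.39 ± 0.18) and Loxl4 in the rat (4.09 ± 0.17). In kidney it was LOXL1 in both (2.30 ± 0.34 and 1.34 ± 0.26), whose marmoset call was lost without the animal term (adjusted p = 0.0682). In brain 7 marmoset and 5 rat genes were lower, with LOXL1 (−2.95 ± 0.34) and Pcolce (−2.07 ± 0.20) the most. Collagen receptors included ITGB1, the shared beta chain of collagen-binding integrins, which was higher in heart (1.75 ± 0.23 and 1.91 ± 0.19) and lower in brain (−2.61 ± 0.23 and −2.09 ± 0.19) in both species. Ddr1, a receptor tyrosine kinase for collagen, was higher in rat kidney (1.89 ± 0.28) and brain (1.04 ± 0.28) and lower in rat liver (−3.05 ± 0.28). Without the female brain its brain difference was 0.46. Of 8 breakdown genes tested in each species, 3 in marmoset heart and 5 in rat heart were higher and none lower, beside 13.1% and 16.7% of all genes higher. MMP2, a gelatinase, led heart in both (2.63 ± 0.17 and 2.97 ± 0.26) and marmoset kidney (2.94 ± 0.17), and was lower in brain (−3.77 ± 0.17 and −2.06 ± 0.26). Timp3, an inhibitor of such proteases, was higher in rat kidney (2.92 ± 0.21) and lower in rat liver (−3.40 ± 0.21).

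The remaining lead genes of these lists were as follows. In marmoset brain TLL1 (1.05 ± 0.16) and MMP16 (1.61 ± 0.15) were higher. In marmoset heart ADAMTS14 was lower (−1.41 ± 0.18). In marmoset kidney BGN was higher (1.12 ± 0.34), a call lost without the animal term, and TLL2 (−1.18 ± 0.19) and OGN (−1.5 ± 0.38) were lower. In marmoset liver LAMC1 (1.42 ± 0.40) and the integrin chain ITGA1 (1.71 ± 0.37) were higher, both calls being lost without the animal term, and LOXL3 (−1.70 ± 0.18), ITGA11 (−1.37 ± 0.16) and the collagen uptake receptor MRC2 (−2.15 ± 0.33) were lower. In the rat Loxl4 was lower in heart (−1.07 ± 0.17), Bmp1 (−1.70 ± 0.29) and Lum (−2.57 ± 0.30) were lower in kidney, and in liver Mmp14 was higher (1.98 ± 0.19) and PCOLCE2 lower (−1.71 ± 0.24).

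Testis and ovary had 1 column each, so no test was made. A member counted as above or below where it lay at least 1 log2 unit from each of the 8 somatic libraries, with at least 1 FPKM in the higher. In rat testis 5 of 35 members with 1 FPKM in any of these columns were above, where 18.5% of all genes were, and none was below, where 5.68% were. Col22a1, a collagen of tissue junctions, stood at 12.5 FPKM in testis, against at most 0.0646 FPKM in the somatic libraries and 0.0553 FPKM in ovary. Col16a1, a fibril-associated collagen, stood at 15.8 FPKM, against 0.441 to 2.74 FPKM, and the transmembrane collagen Col23a1 at 5.46 FPKM, against at most 1.06. The other 2 were Col20a1 at 3.13 FPKM and Col26a1, first described in mouse testis and ovary, at 1.89 FPKM. The median member lay 1.80 log2 units under its highest somatic library, and the median gene 1.36 under.

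The genes above in rat testis are not members in the marmoset, so a count of marmoset members could not hold them. In marmoset testis none of 16 members lay at least 1 log2 unit above or below every somatic library. Of all genes, 9.46% lay above and 2.86% below. COL28A1 stood at 4.46 FPKM, against at most 3.14 FPKM in the somatic libraries, and COL5A1 at 10.7 FPKM, against at most 8.79. Of the rat testis genes, COL16A1 was at 7.30 FPKM in marmoset testis against at most 4.17 in the somatic libraries. COL26A1 was at 1.55 FPKM against at most 0.839, and COL23A1 at 0.678 FPKM against at most 0.583. These were above every somatic library, but by less than 1 log2 unit. COL22A1 was at 0.0477 FPKM against at most 0.148. Each is named by its ID only. Germ cell markers summed to 9471 FPKM over 6 genes in rat testis and to 30.0 FPKM over the 2 genes present in the marmoset table, so the columns cannot be matched for germ cell content.

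Ovary was rich in fibrillar collagen. Marmoset COL1A1 stood at 140 FPKM in ovary, against 0.435 to 21.4 FPKM in the somatic libraries, and COL1A2 at 234 FPKM, against 5.03 to 63.5. COL21A1, a fibril-associated collagen, stood at 4.91 FPKM, against at most 0.974, and COL2A1 at 2.38 FPKM, against at most 0.188. These 4 of 18 members were above every somatic library, where 2.42% of all genes were. In rat ovary 3 of 32 were above, again beside 2.42% of all genes: Col20a1 at 3.53 FPKM, against at most 0.375, Col11a1 at 8.06 FPKM, against at most 1.89, and Col1a1 at 148 FPKM, against 3.88 to 64.2. Col1a2, at 146 FPKM against at most 73.4, and Col6a3, at 7.12 against at most 3.10, fell just short with 0.98 and 0.99 log2 units. The fibroblast and mural cell list summed to 1475 FPKM in marmoset ovary, above the 1235 and 1163 FPKM of its heart, and to 556 FPKM in rat ovary, under the 806 and 1397 FPKM of its heart; its part was not tested.

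**Figure D5:**
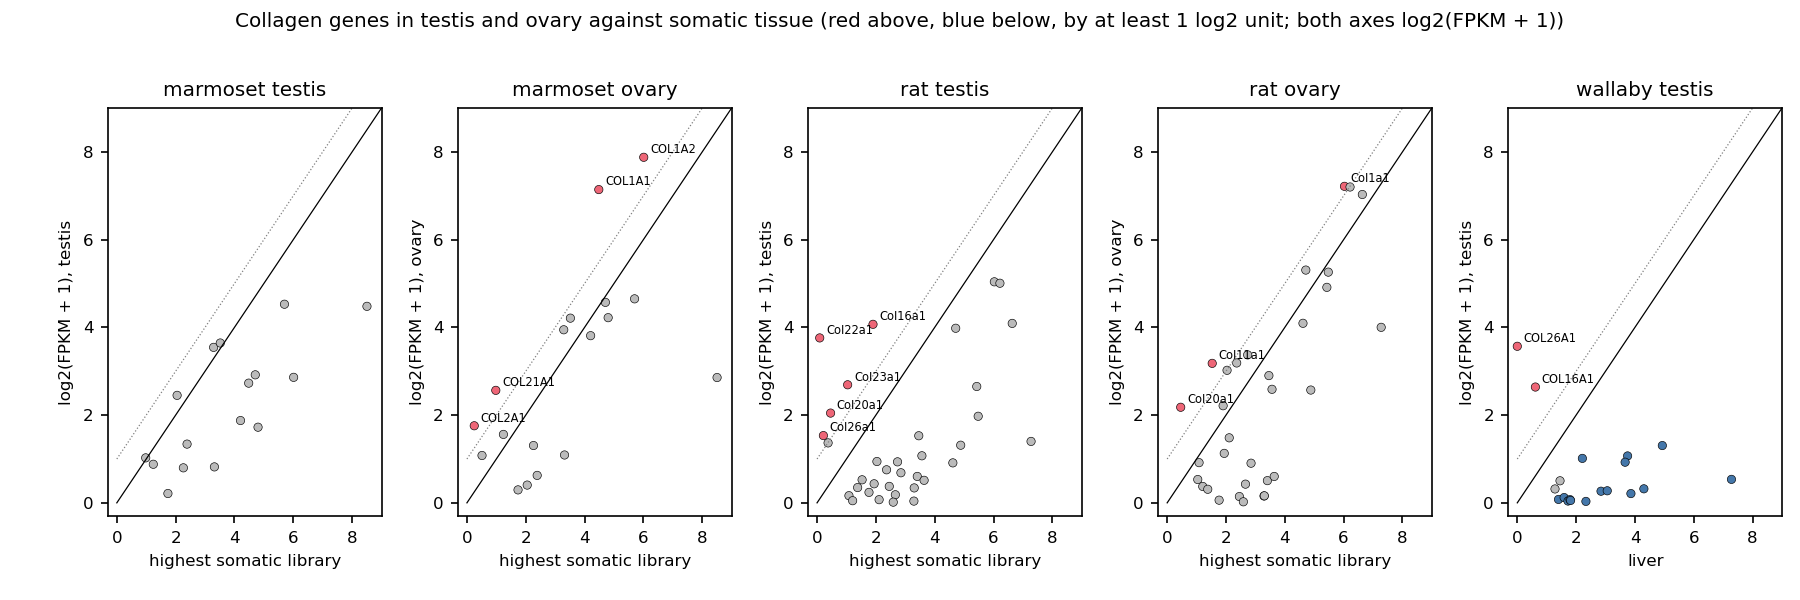
Each member with at least 1 FPKM in testis or ovary or in its highest somatic library (liver in the wallaby), as log2(FPKM + 1) in the gonad on the y axis and in that library on the x axis. Red members lie at least 1 log2 unit above every somatic library and blue members as far below; Col22a1 in rat testis and COL26A1 in wallaby testis lie near the y axis.

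In the wallaby most collagen genes were lower in testis than in liver. Of 19 members with 1 FPKM in either column, 2 were higher in testis and 15 lower by at least 1 log2 unit, where 23.2% and 48.6% of all genes were. COL26A1 stood at 10.9 FPKM in testis and was listed at 0 in liver, and COL16A1 stood at 5.23 FPKM, against 0.532 in liver. Both were also among the 5 of rat testis. The lower ones were led by COL18A1, at 0.449 FPKM in testis against 155 in liver, COL6A1, at 0.248 against 18.8, COL6A2, at 0.158 against 13.6, and COL3A1, at 1.47 against 29.5. COL1A1 was at 1.10 FPKM in testis and 12.5 in liver, COL1A2 at 0.900 and 11.7, COL4A1 at 0.210 and 7.33, COL4A2 at 0.202 and 6.19, and COL6A3 at 0.245 and 1.43. COL6A5, at most 0.297 FPKM in every marmoset column and every rat somatic library, stood at 4.04 FPKM in wallaby liver. The 4 germ cell markers in the table summed to 82101 FPKM in this testis, against 92.2 FPKM in liver, and the fibroblast and mural cell list to 81.7 FPKM, against 1372, and their part was not tested.

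Between the sexes, 1 library each, few members differed by 2 log2 units. In rat kidney Col17a1, a hemidesmosome collagen of epithelia, stood at 8.80 FPKM in the female and 0.104 in the male. Col24a1, a fibrillar chain, stood at 8.87 against 0.0229 FPKM and Col6a6 at 4.48 against 0.247 FPKM. In every other library of both species these 3 genes were at most 1.37 FPKM, except COL24A1 in female marmoset brain. These 3 of 23 members were higher in the female, where 0.403% of all genes were, and none was higher in the male, where 2.27% were. No member passed this difference in any other tissue. The shares of all genes that were higher in the female or in the male there were 0.0462% and 0.477% in marmoset brain, 0.62% and 8.22% in marmoset heart, 0.119% and 3.27% in marmoset kidney and 0.704% and 6.27% in marmoset liver. In the rat they were 0.442% and 0.316% in brain, 0.224% and 0.612% in heart and 0.572% and 1.91% in liver. Genes of adipocytes, looked at after these values were seen, were also higher in that female kidney: Adipoq at 22.6 against 3.09 FPKM, Fabp4 at 62.4 against 1.36, Plin1 at 1.96 against 0.0326 and Cfd at 30.2 against 1.22. Their part was not tested. Of 6 genes of stratified epithelium and urothelium, Krt5, Krt14, Upk2 and Upk3a were listed at 0 in both kidneys, Upk1a stood at 0.596 FPKM in the female and 0.721 in the male, and Upk1b at 0.228 and 0.0745. With 1 female and 1 male, sex, animal and dissection cannot be told apart.

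Of the 21 shared members, 14 reached 1 FPKM in the mean of at least 1 somatic tissue in both species, and in 9 of these 14, beside 60.5% of 9189 shared genes, the same somatic tissue was highest: heart for COL1A1, COL1A2, COL4A1, COL4A2, COL6A1 and COL15A1, brain for COL27A1, kidney for COL4A4 and liver for COL18A1. The other 5 differed. COL5A1 and COL5A3 were highest in marmoset brain and rat heart, COL14A1 in marmoset heart and rat liver, COL24A1 in marmoset brain and rat kidney, and COL4A5 in marmoset liver and rat kidney. In several the neighbours in that order did not separate beyond their spread, as with rat Col14a1 at 4.13 ± 1.70 FPKM in liver and 3.62 ± 0.225 FPKM in heart (SD, n = 2 each).

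A further 19 marmoset entries are collagen genes by an Ensembl name table but carry another or no symbol in the file, and they are not counted above. With them, the calls in marmoset heart go to 14 and in kidney to 9. COL3A1 stood at 26.5 and 19.8 FPKM in heart, 13.9 and 14.3 in kidney, 15.5 and 15.3 in liver and 0.512 and 0.680 in brain, and was called in heart (1.71 ± 0.19) and brain (−3.50 ± 0.19). COL6A3 was higher in heart (2.10 ± 0.18), COL4A3 (2.09 ± 0.16) and COL12A1 (1.84 ± 0.18) in kidney and COL9A3 in brain (1.56 ± 0.20). COL6A2 was called higher in heart (1.5 ± 0.35) and kidney (1.45 ± 0.35), and both calls were lost without the animal term. In ovary COL12A1 at 84.0 FPKM, against at most 7.39, and COL3A1 at 184 FPKM, against at most 26.5, were the farthest above the somatic libraries.

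The members not described so far stayed low. In the marmoset COL7A1, an anchoring fibril of skin, reached 1.11 FPKM in ovary, and COL28A1, highest in testis at 4.46 FPKM, ran from 0.657 to 3.14 FPKM in the somatic libraries with no call in any tissue. In the rat Col13a1, a transmembrane collagen, stood at 1.17 and 1.31 FPKM in liver and at most 0.326 FPKM in the other somatic libraries, a difference of 0.99 ± 0.11 that lay just under 1, and it passed the filter through liver alone. Col8a1 was at 1.12 and 1.03 FPKM in heart, the tissue through which it passed the filter, and Col8a2 at 0.719 and 1.60 FPKM in kidney. Col16a1 and Col27a1 were highest among rat somatic tissues in brain, at 2.74 and 1.95 FPKM and at 2.42 and 3.32 FPKM, and were not called there. Col6a5 reached 1.58 FPKM in rat testis.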

How the data were processed

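RNA was measured in 31 samples: 14 of the marmoset, 12 of the rat, 2 of the wallaby and 3 of elephant fibroblasts, which were not used here. The deposited values are FPKM made by the authors, with TopHat 1.4.0 and Cufflinks 2.0.0 per the submitters' processing notes, in 1 table per species. Per the file headers the columns are tissues by sex, and the file names call them normalized. The sources used here state neither how this was done nor the genome builds. No coordinates or sequences are printed, and the podocyte marker list is not reported here. In the wallaby, 8 columns held only 0 and were not used. Depth is unknown: low values did not fall on multiples of 1 read (the fullest bin held at most 1.19% of the low genes).

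Each table was analysed alone, so levels set across species come from separate tables. limma 3.58.1 (R 4.3.3, mean-variance trend, animal as a term) was run on log2(FPKM + 1), a scale that understates changes of low genes, and was tested on simulated data. Female-minus-male deviations correlated between all pairs of tissues (0.14 to 0.72), and the labels give individual 1 of each sex, so the animal is the pairing. Named were the chains of collagens I, III, IV and VI, the 3 highest and 2 lowest called differences of each tissue, the 3 members farthest above the somatic libraries in each gonad, and the most changed called gene of each list, tissue and direction; other members named were chosen after their values were seen. Members and lists were chosen with earlier results of these data known. Alternatives were another pseudocount (0.1), no filter, no animal term, rescaled libraries, no trend, no brain columns, other folds and minimums, and each library left out.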

Additional observations from a re-analysis of the deposited data

How the results depend on the processing

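Of the 75 collagen calls over the 8 tissue comparisons (31 in the marmoset, 44 in the rat), 44 held with any library left out, 25 were lost in at least 1 such fit (10 in the marmoset, 15 in the rat), and 6 (3 in each) were not tested in at least 1, where the gene fell below the filter: COL15A1 in marmoset brain, heart and liver, Col9a2 in rat brain and Col4a3 and Col4a4 in rat kidney. With each library left out in turn, the calls ranged from 10 to 13 in marmoset brain, 6 to 9 in heart, 2 to 6 in kidney and 3 to 6 in liver, and from 11 to 13 in rat brain, 9 to 16 in heart, 2 to 7 in kidney and 8 to 10 in liver. Without the replicate block (the animal term) the marmoset counts were 12, 7, 4 and 4 (main 13, 9, 5 and 4) and the rat counts kept their 13, 15, 7 and 9 in brain, heart, kidney and liver; besides the calls named above, AGRN in marmoset heart, BGN in marmoset kidney, ITGA1 and LAMC1 in marmoset liver and COL27A1 in marmoset heart (adjusted p = 0.0753) were lost. With a pseudocount of 0.1 the counts were 9 in marmoset liver, 20 in rat brain and 15 in rat liver. Without the brain columns they were 1 in marmoset kidney and 7 in marmoset liver, and the marmoset kidney difference of BGN was −0.16, against 1.12 with them. Counting the genes named by ID, which was chosen after seeing the data, gave 14 in marmoset heart and 9 in kidney. At 2 log2 units, 1 member was past the difference in marmoset ovary, 2 in rat testis, 0 in rat ovary and 11 in the wallaby, and at 5 FPKM 2, 3, 2 and 10. The shares of all genes given above belong to the main settings, so counts at other settings are not read against them. Rescaling the libraries moved the median gene by 0.36 and 0.35 in brain, −0.26 and −0.22 in liver (marmoset and rat) and −0.12 in rat heart. The split then went to 5 higher and 10 lower in rat brain and 10 and 3 in rat heart, and to 1 and 5 in marmoset liver and 3 and 8 in rat liver. Other alternatives kept each count within 1.5 times. The causes were not tested. Depth is unknown and 2 libraries a tissue limit the precision.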

Other observations

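NPHS1, a podocyte gene, stood at 202 and 1373 FPKM in female and male marmoset liver, against 21.7 and 115 FPKM in kidney. ADAMTS14, which trims the ends of procollagen, stood at 10.9 and 19.0 FPKM in marmoset liver, and rat liver had 0.0803 and 0.107 FPKM. Loxl4, a crosslinking enzyme, stood at 24.3 and 22.7 FPKM in rat liver, LOXL4 at 16.7 FPKM in wallaby liver and at 0.381 and 1.05 FPKM in marmoset liver. P4HB was high in the liver of all 3 species, at 923 and 1432 FPKM in the marmoset, 691 and 906 FPKM in the rat and 649 FPKM in the wallaby. These levels stand in separately normalized tables.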
